A study of Mus musculus with 6 samples.

Results

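Oxidative phosphorylation is the chain of inner mitochondrial membrane complexes that turns the energy of nutrients into ATP. Complexes I and II take electrons from NADH and succinate, complex III passes them to cytochrome c, complex IV (cytochrome c oxidase) hands them to oxygen, and complex V (ATP synthase) uses the resulting proton gradient to make ATP. Photoreceptors pack mitochondria into their inner segments and are among the most oxygen-demanding cells of the body, and the eye muscles attached to the globe are rich in mitochondria as well.

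The genes described here were the nuclear-encoded subunits of these complexes, chosen by the start of their symbol (Ndufa, Ndufb, Ndufc, Ndufs, Ndufv, Sdha to Sdhd, Uqcr, Cox4i, Cox5 to Cox8 and Atp5), with the assembly factors Ndufaf and Sdhaf left out. The rule gave 85 of the 22558 genes in the table: 38 of complex I, 4 of complex II, 8 of complex III, 18 of complex IV and 17 of complex V. It used names and no measured value. It keeps Ndufa4, which is now counted as a subunit of complex IV, under complex I, and it keeps Atp5s and Atp5sl, which are not structural subunits of ATP synthase, under complex V. Of the 85 genes, 83 had enough fragments to be tested. Cox7b2 and Cox8c, the testis forms of their subunits, fell below the filter: Cox7b2 had 0, 0 and 1 fragments in the knockout libraries and 1, 0 and 1 in the wild type libraries, and Cox8c had 0 in all 6.

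RNA of whole eyes was sequenced from 3 BC027072 -/- samples and 3 wild type samples. All 6 are labelled as strain C57BL/6 and as postnatal day 21. BC027072 is the mouse counterpart of PCARE, a photoreceptor cilium gene mutated in retinitis pigmentosa in humans, and the study set the knockout eye against the normal one. The labels do not say which part of the gene was deleted, or whether the replicates of a group came from separate animals, so p-values measure only the spread between these samples.

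The knockout libraries held 8444916, 5695526 and 10343824 fragments assigned to genes, and the wild type libraries 21815954, 14341396 and 8441940. BC027072 had 3, 2 and 3 fragments in the knockout libraries and 5854, 3667 and 2251 in the wild type libraries, which fits the labels. Knockout libraries 1 and 3 carried Y-linked transcripts, while knockout library 2 and all 3 wild type libraries carried Xist, which is transcribed where an X chromosome is silenced, so sex was not balanced between the groups. Summed markers of rods were lower in knockout eyes (16240 to 18440 CPM, fragment counts relative to library size with TMM factors, against 26720 to 27370 CPM in wild type eyes), and so were those of cones (386 to 398 against 587 to 619 CPM): 7 of 8 rod markers fell and 1 rose, and 5 of 5 cone markers fell, by the adjusted test described for the members. In whole-eye RNA, fewer cells of a type and less RNA per cell cannot be told apart.

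The level of oxidative phosphorylation transcripts was nearly the same in knockout and wild type eyes. Summed over all 85 genes it was 9267, 8972 and 9226 CPM in the knockout libraries and 9108, 9106 and 9564 CPM in the wild type libraries. The ranges overlapped, and the ratio of the means was 0.989. Any single knockout library lay between 0.938 and 1.02 times any single wild type library. As a share of all fragments, without TMM scaling, the 85 genes took 0.915% to 0.945% in knockout libraries and 0.898% to 0.923% in wild type libraries. These ranges overlapped too, but the knockout range lay slightly higher, so the direction of the small difference depended on the scaling.

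Each complex gave the same picture, and no complex had sums that separated the groups. Complex I summed to 2719, 2626 and 2692 CPM in knockout libraries, against 2674, 2635 and 2823 CPM in wild type libraries, a ratio of means of 0.988. Complex II summed to 523.0, 487.8 and 508.5 CPM in knockout libraries, against 516.3, 508.8 and 536.1 CPM in wild type libraries, a ratio of 0.973. Complex III averaged 874.7 ± 9.37 CPM in knockout libraries and 872.6 ± 28.0 CPM in wild type libraries (SD, n = 3 each). Here the groups were closest together. Complex IV summed to 1699, 1655 and 1666 CPM in knockout libraries, against 1589, 1638 and 1680 CPM in wild type libraries, a ratio of 1.02. Complex V summed to 3459, 3332 and 3474 CPM in knockout libraries, against 3481, 3458 and 3622 CPM in wild type libraries, a ratio of 0.972. Its most abundant gene on this scale, Atp5b, made up 1090 of a mean of 3422 CPM in knockout libraries. In wild type libraries it made up 1190 of 3520 CPM. By sign, 12 of the 17 genes of complex V lay above wild type and 5 below. The lowest and highest ratios that any knockout and any wild type library gave were 0.91 and 1.03 for complex II, the widest range downward, and 0.985 and 1.07 for complex IV, the widest upward.

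**Figure D1:**
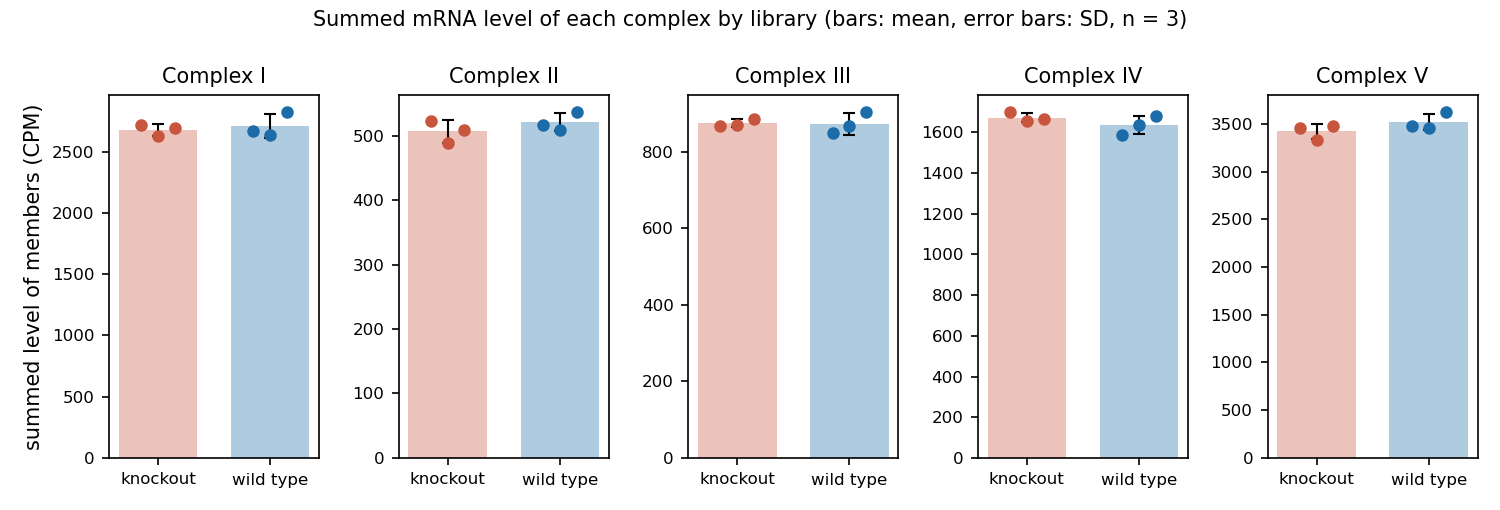
Summed level of the members of each complex (CPM, linear axis from 0) in each library. Points are libraries, bars are group means and error bars are SD (n = 3); in every complex the knockout and wild type points overlap, with complex V at 3332 to 3474 CPM in knockout and 3458 to 3622 CPM in wild type libraries.

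Gene by gene, edgeR's quasi-likelihood test with Benjamini-Hochberg adjustment over 14919 genes called 1 of the 83 tested members higher in knockout eyes and none lower. This is 1.2% of the members in the upward direction, against 2.89% of all genes tested, and 0 against 3.35% in the downward direction. At an unadjusted p below 0.05, 5 members were higher (6.02%, against 9.55% of all genes) and 2 were lower (2.41%, against 9.45%). DESeq2 and limma on log2 CPM also called no member lower, where they called 2.88% and 3.32% of all genes lower. The single call was Cox7a1, a muscle form of a cytochrome oxidase subunit, described further on. By sign alone, 43 members lay above and 40 below wild type, and their median log2 fold change (knockout over wild type) was 0.0051, where that of all genes tested was 0.0023. The medians of complexes I to V were -0.008, -0.044, -0.0037, -0.00027 and 0.033.

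The 95% intervals of the fold changes bound what could have gone unseen in this fit, which leaves sex out. For 79 of the 83 members, 95.2%, the whole interval lay within 0.5 log2 units of no change, which is 1.41-fold either way. Of all genes tested, 73.8% were bounded as closely. For 59 members, 71.1%, it lay within 0.25 log2 units, or 1.19-fold, against 30.1% of all genes tested. These genes are well expressed, with a median level of 85.1 CPM against 25 CPM for all genes tested, and their median standard error was 0.069 against 0.097. A typical member needed a change of 0.24 log2 units to be called. With sex as a covariate, the standard errors of Cox7a1, Cox6a2 and Cox8b were 0.18, 0.18 and 0.15. Without it they were 0.11, 0.11 and 0.098, so the bounds given here are narrower for these genes than a fit with sex allows. The counts of 79 and 59 members come from the fit without sex. They are not given here for a fit with sex, and neither are the bounds of the other members. The 4 members whose interval reached past 0.5 were Cox7a1, the scarce Cox6b2 and Atp5s, and Ndufs5, whose fragments are divided with another transcript at its locus. The plot of intervals by complex shows 82 of the 83.

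**Figure D2:**
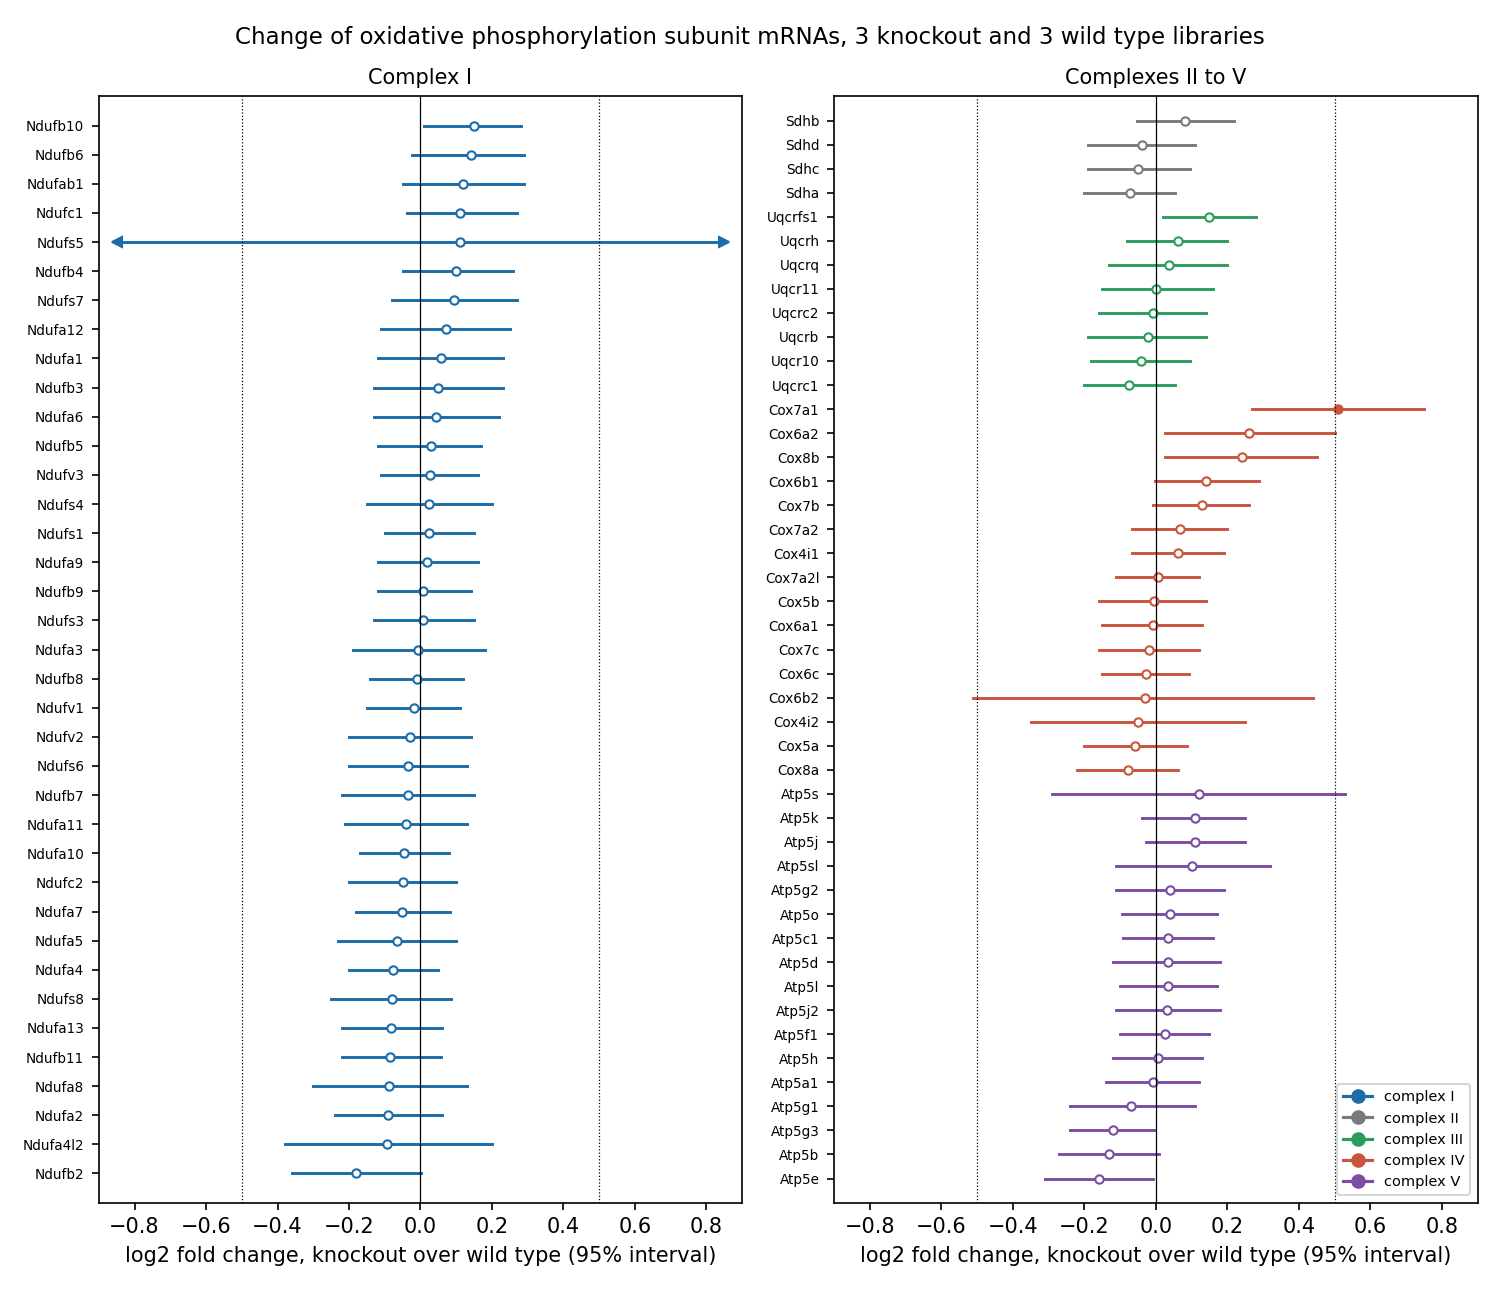
Log2 fold change of 82 of the 83 tested members, knockout over wild type, with its 95% interval, sorted within each complex. The filled point (Cox7a1) passed the adjusted threshold, dotted lines mark 0.5 log2 units either way, and the arrows of Ndufs5 show an interval that runs on to -1.61 and 1.82.

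The plot of the distribution of fold changes sets the members beside all genes tested. A log2 fold change smaller than 0.2 in size was found for 80 of 83 members (96.4%), and for 11007 of all 14919 genes tested (73.8%). All 3 members outside that range were cytochrome oxidase genes: Cox7a1, Cox6a2 and Cox8b.

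**Figure D3:**
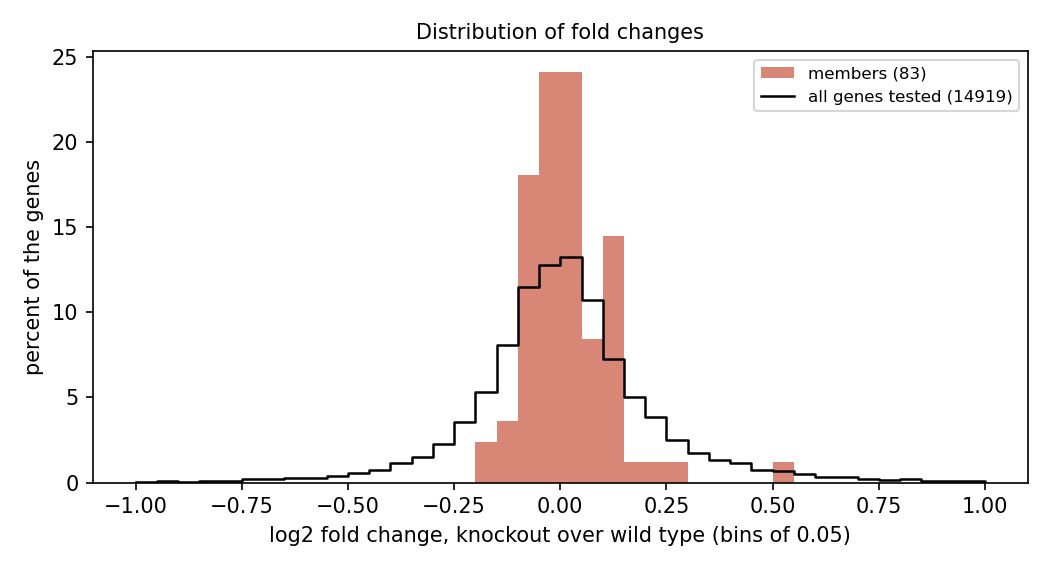
Distribution of the log2 fold changes (knockout over wild type) in bins of 0.05, as a percent of the 83 tested members (filled) and of the 14919 genes tested (line); 109 genes beyond 1 log2 unit either way are not drawn. The members sit within 0.2 of zero apart from 3 cytochrome oxidase genes.

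Complex I, NADH dehydrogenase, is built from core subunits that carry the flavin and the iron-sulfur clusters and from many accessory subunits around them. None of its 38 genes was called, and 37 had an interval within 0.5 log2 units. The 7 nuclear core subunits had a median log2 fold change of -0.019, and 5 of them had an interval within 0.25 log2 units. Ndufs1, the large iron-sulfur subunit, had the narrowest interval of complex I, at a log2 fold change of 0.023 (-0.10 to 0.15).

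Of the accessory subunits, the 15 Ndufa genes ranged from -0.093 to 0.12 in log2 fold change and the 10 Ndufb genes, subunits of the membrane arm, from -0.18 to 0.15. Ndufb2 and Ndufb10 marked those ends for complex I as a whole. Ndufb2 had 24.4, 26.2 and 27.1 CPM in knockout libraries and 30, 27.8 and 30.2 CPM in wild type libraries. All 3 knockout values were below all 3 wild type values, at a log2 fold change of -0.18 ± 0.084 (SE, edgeR adjusted p = 0.266). Ndufb10 had 77.9, 73.9 and 80.7 CPM in knockout libraries and 69.9, 67.8 and 73.3 CPM in wild type libraries. Here the knockout values were all above, at a log2 fold change of 0.15 ± 0.064 (SE, edgeR adjusted p = 0.219). Neither passed the threshold. Ndufa4, which has the highest level of this group per length, at a mean of 555 FPKM over the 6 libraries, had 194, 183 and 192 CPM in knockout libraries and 191, 203 and 207 CPM in wild type libraries. Its paralog Ndufa4l2, induced by low oxygen in other cells, had a mean of 7.74 CPM in knockout eyes and 8.43 CPM in wild type eyes, with an interval of -0.38 to 0.20.

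Ndufs5, an accessory subunit of complex I, could not be read from its own row. It had 186, 156 and 0 fragments in knockout libraries and 497, 1 and 135 in wild type libraries. Knockout library 3 and wild type library 2 were empty or almost so, and the groups overlapped, which left a log2 fold change of 0.11 with a 95% interval of -1.61 to 1.82. BC002163, which the authors list at the same place on chromosome 4, had 116, 55 and 363 fragments in knockout libraries and 257, 464 and 158 in wild type libraries. It was highest, relative to depth, in the very libraries where Ndufs5 was missing. The sum of both was even across the libraries, at 35.4, 36.3 and 34.3 CPM in knockout libraries and 35.1, 32.8 and 36.0 CPM in wild type libraries. A fit of the sum, chosen after these values were seen, gave a log2 fold change of 0.028 with an interval of -0.13 to 0.19 (edgeR adjusted p = 0.891), on the assumption that the fragments come from both.

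The 4 genes of complex II, succinate dehydrogenase, were all bounded within 0.25 log2 units. Sdha, the flavoprotein that oxidizes succinate, averaged 245 ± 4.65 CPM in knockout libraries and 257 ± 7.02 CPM in wild type libraries (SD, n = 3 each), a log2 fold change of -0.071 (-0.20 to 0.053). Its groups overlapped. Sdhb, the iron-sulfur subunit, had 98.9, 88.4 and 95.4 CPM in knockout libraries and 87.5, 87.1 and 93.8 CPM in wild type libraries, a log2 fold change of 0.082 (-0.053 to 0.22). The membrane anchors Sdhc and Sdhd lay at -0.049 and -0.039.

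In complex III, the 8 genes ranged from -0.074 for Uqcrc1, a core protein, to 0.15 for Uqcrfs1, the Rieske iron-sulfur protein that accepts electrons from ubiquinol. Uqcrfs1 had 95.3, 98.7 and 105 CPM in knockout libraries and 88.3, 90.4 and 91.7 CPM in wild type libraries. The groups did not overlap, and the log2 fold change of 0.15 ± 0.061 (SE, interval 0.021 to 0.28) did not pass the threshold (edgeR adjusted p = 0.181). No interval of complex III reached past 0.28 either way. Uqcrb, a small subunit near the quinone site, had the widest, at -0.19 to 0.14.

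Complex V, ATP synthase, combines a catalytic head with a rotating c-ring and a peripheral stalk that holds the head still. None of its 17 genes was called. The 5 head and central stalk genes (Atp5a1, Atp5b, Atp5c1, Atp5d and Atp5e) ranged from -0.16 to 0.035, with no interval beyond -0.31 or 0.18. Atp5e, the small epsilon subunit, was the lowest member of the complex, with 76.4, 83.4 and 92.4 CPM in knockout libraries and 92.1, 93.1 and 97.6 CPM in wild type libraries. Knockout library 3 just reached the lowest wild type library, and the log2 fold change was -0.16 ± 0.071 (SE, edgeR adjusted p = 0.231). Atp5b, the catalytic beta subunit, was lower in all 3 knockout libraries (1130, 1010 and 1120 CPM) than in the wild type libraries (1200, 1160 and 1210 CPM). Its interval of -0.27 to 0.0087 included no change.

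The 4 peripheral stalk genes (Atp5f1, Atp5h, Atp5j and Atp5o) all had a log2 fold change above zero, between 0.0071 and 0.11, and none passed the test. The c subunit that builds the rotor is encoded by 3 genes for an identical mature protein. Atp5g3 had 126, 120.0 and 130.0 CPM in knockout libraries and 138, 135 and 137 CPM in wild type libraries, without overlap, a log2 fold change of -0.12 (interval -0.24 to -0.0012, edgeR adjusted p = 0.258). Atp5g1 and Atp5g2 overlapped between the groups, at -0.068 and 0.041. Atp5k, a small membrane subunit, had the highest level per length of all members, at a mean of 1020 FPKM. Its log2 fold change on counts was 0.11 (-0.039 to 0.25).

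In 8 of the 83 tested members (9.64%) all knockout libraries lay above all wild type libraries, against 11.6% of all genes tested, and in 3 (3.61%) all lay below, against 11.7%. The 8 were Ndufab1, Ndufb6, Ndufb10 and Ndufc1 of complex I, Uqcrfs1 of complex III, Cox7a1 and Cox7b of complex IV and Atp5j of complex V. The 3 were Ndufb2, Atp5b and Atp5g3.

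In complex IV, cytochrome c oxidase, the largest log2 fold changes were those of muscle forms. Several of its subunits exist as a form found in most tissues and a form of heart and skeletal muscle, encoded by separate genes: Cox7a2 and Cox7a1, Cox6a1 and Cox6a2, Cox8a and Cox8b. The 3 muscle forms had the 3 highest log2 fold changes of all 83 members, and 1 of them passed the threshold. None of the general forms did, as the plot of both forms by library shows.

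Cox7a1 had 178, 122 and 275 fragments in knockout libraries and 329, 216 and 148 in wild type libraries. Scaled to depth this was 20.8, 21.0 and 26.0 CPM in knockout libraries, against 15.3, 15.2 and 18.2 CPM in wild type libraries. Every knockout library was above every wild type library, with knockout library 3 the highest. Cox7a1 rose 1.43-fold (95% interval 1.21 to 1.69), a log2 fold change of 0.51 ± 0.11 (SE), with an adjusted p of 0.0105 by edgeR's quasi-likelihood test. The call was lost without knockout replicate 3 (log2 fold change 0.39, edgeR adjusted p = 0.0906) and without wild type replicate 2 (0.48, adjusted p = 0.0514), where 2.34% and 1.81% of all genes were called higher. It was also lost with sex as a covariate (0.39, edgeR adjusted p = 0.448) and among the 4 Xist-positive libraries, where 1 knockout library stands against 3 of wild type (0.39, adjusted p = 0.398). Those fits called 0.61% and 0.619% of all genes higher.

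Cox6a2 had 46.1, 40.0 and 43.0 CPM in knockout libraries and 34.0, 31.2 and 45.1 CPM in wild type libraries. Wild type library 3 lay among the knockout libraries, and the log2 fold change of 0.26 (interval 0.026 to 0.50) did not pass the threshold (edgeR adjusted p = 0.205). Without wild type replicate 3 it was 0.41, with an edgeR adjusted p of 0.0166. With any other single library left out it was 0.16 to 0.30 and did not pass the threshold. The locus of Cox6a2 overlaps that of Itgad, and without strand information their reads cannot be told apart there. The same limit holds for other members, as 10 in all have overlapping loci, among them Ndufa4l2 (with Shmt2), Atp5b (Mir677) and Atp5j (Gabpa). Cox8b had 41.9, 32.9 and 33.5 CPM in knockout libraries and 30.8, 28.5 and 33.5 CPM in wild type libraries. Knockout library 1 stood above the rest, and the log2 fold change was 0.24 (interval 0.027 to 0.45, edgeR adjusted p = 0.196). Without knockout replicate 1 it was 0.11, and with any other single library left out 0.18 to 0.30. With sex as a covariate the log2 fold changes of Cox6a2 and Cox8b were 0.15 and 0.097.

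The general forms gave narrower intervals around zero. Cox7a2 had 102, 116 and 117 CPM in knockout libraries and 105, 108 and 106 CPM in wild type libraries, a log2 fold change of 0.068 (-0.067 to 0.20). Cox6a1 had 111, 106 and 93.7 CPM in knockout libraries and 104 CPM in each wild type library, a log2 fold change of -0.0073 (-0.15 to 0.13). Cox8a, the most negative gene of the complex, had 197, 193 and 168 CPM in knockout libraries and 200.0, 199 and 191 CPM in wild type libraries, a log2 fold change of -0.079 (-0.22 to 0.062). In each of the 3 pairs the groups overlapped for the general form.

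**Figure D4:**
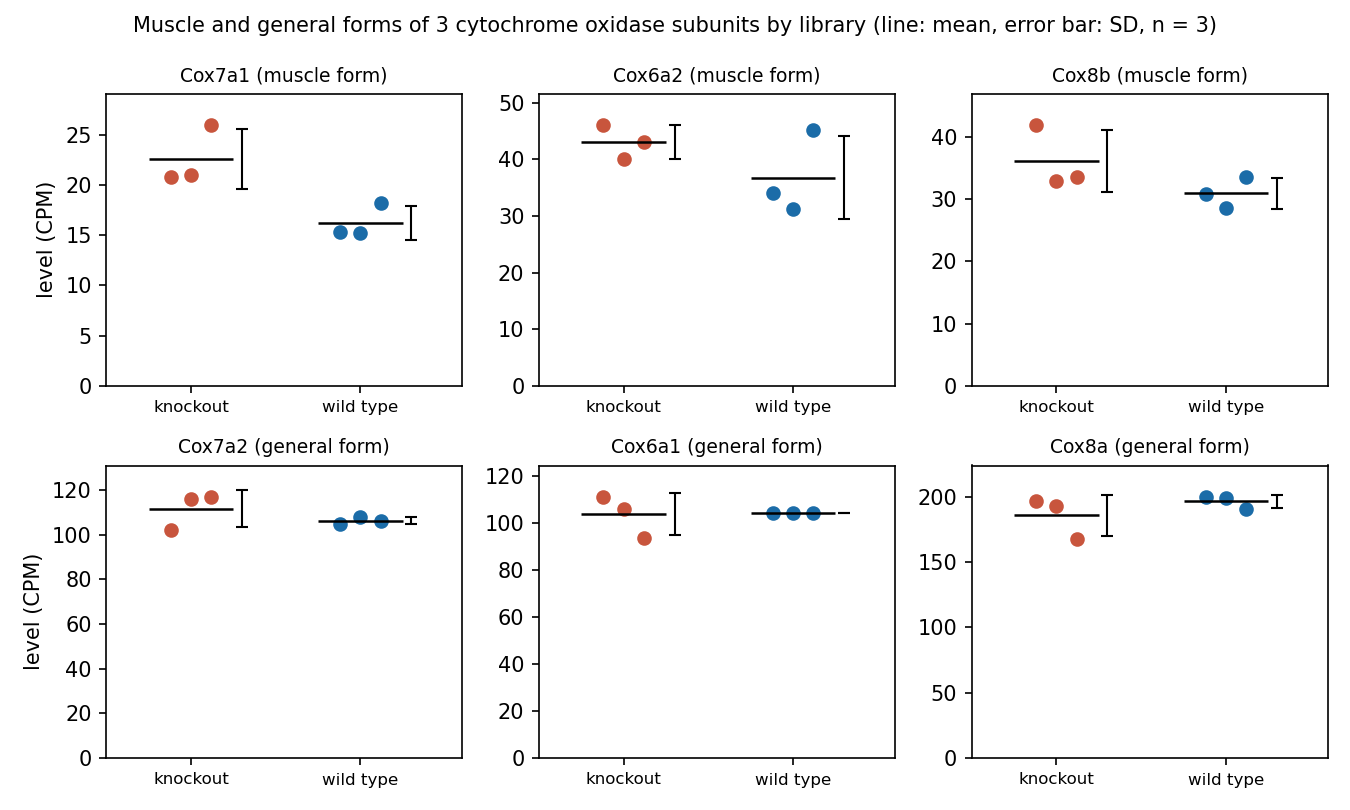
Level (CPM, linear axis from 0) of the muscle form (top) and the general form (bottom) of 3 cytochrome oxidase subunits in each library; points are libraries, lines are group means and error bars are SD (n = 3). For Cox7a1 the knockout points (20.8 to 26.0 CPM) all lie above the wild type points (15.2 to 18.2 CPM), and in the other panels the groups overlap.

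Set against its partner on a per-length scale (CPM per kilobase), Cox7a1 made up 29.6%, 27.2% and 31.3% of the Cox7a1 and Cox7a2 total in knockout libraries, and 23.1%, 22.5% and 26.1% in wild type libraries. The difference of 5.51 percentage points had p = 0.1 in a two-sided exact permutation test, the smallest that 3 against 3 allows, and 0.45 adjusted over the 9 shares computed. The other muscle forms overlapped: Cox6a2 averaged 25.2% ± 1.88 of its pair in knockout libraries and 22.2% ± 3.4 in wild type libraries, and Cox8b 22.5% ± 1.98 and 19.1% ± 1.61 (SD, n = 3). Atp5g2 held 29.1% of the 3 c subunit genes in knockout libraries and 27.2% in wild type libraries, without overlap (exact permutation p = 0.1, adjusted 0.45). The shares of Cox4i2 (3.12% in knockout and 3.43% in wild type libraries), a form linked to low oxygen and lung, and of Cox6b2 (2.32% and 2.71%), a testis form, were small in both groups.

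The muscle forms stand beside a wider difference in muscle transcripts between the libraries. A list of 8 skeletal muscle markers (Ckm, Acta1, Myh4, Myh2, Tnnt3, Mylpf, Actn3 and Atp2a1) summed to 4053, 3726 and 4211 CPM in knockout libraries and 3399, 2737 and 4034 CPM in wild type libraries, with overlap. Of the 8, 2 rose and none fell by the adjusted test, with a median log2 fold change of 0.29 and a range from -0.22 for Myh2 to 0.54 for Myh4. Myh4, the fast myosin heavy chain IIB, had 786, 730.0 and 806 CPM in knockout libraries and 517, 458 and 628 CPM in wild type libraries, a log2 fold change of 0.54 ± 0.093 (SE, edgeR adjusted p = 0.00173), and 0.45 with sex as a covariate (adjusted p = 0.147). Actn3, the alpha-actinin of fast fibres, had a log2 fold change of 0.48 (edgeR adjusted p = 0.032). Acta1, skeletal muscle actin, had one of -0.024.

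Knockout library 3, the highest in Cox7a1, also had the highest muscle marker sum, and wild type library 2 the lowest of both. Knockout library 1 and wild type library 3 had nearly the same muscle sum (4053 and 4034 CPM): between them, Cox7a1 was at 20.8 and 18.2 CPM, Cox6a2 at 46.1 and 45.1 CPM and Cox8b at 41.9 and 33.5 CPM. The part of muscle content in the rise of Cox7a1 was not tested. Cox7a1 and Cox8b are also expressed in brown fat. Of the listed brown fat genes, Ucp1 reached at most 0.117 CPM in a knockout library and 0.246 CPM in a wild type library, and Cidea had 1.17, 0.861 and 1.13 CPM in knockout libraries and 1.16, 1.27 and 1.11 CPM in wild type libraries. The part of brown fat was not tested.

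The remaining genes of complex IV did not pass the test. The 5 single-form subunits Cox5a, Cox5b, Cox6c, Cox7b and Cox7c ranged from -0.058 to 0.13, with no interval beyond -0.20 or 0.26. Cox4i1, the regulatory subunit IV of most tissues, had 271, 270.0 and 292 CPM in knockout libraries and 266, 263 and 270.0 CPM in wild type libraries, a log2 fold change of 0.061 (-0.067 to 0.19). Cox6b1 lay at 0.14 (-0.0008 to 0.29), with overlapping groups. Cox7a2l had the narrowest interval of complex IV, at 0.0051 (-0.11 to 0.12).

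There are 6 members on chromosome 17, as BC027072 does, where sequence around a targeted gene can differ from the rest of the strain. On the mm9 build the nearest, Ndufv2, lay 5.64 Mb from BC027072 and had a log2 fold change of -0.030 (-0.20 to 0.14). Cox7a2l (11.8 Mb), Ndufa11 (15.2 Mb), Ndufa7 (38.1 Mb), Ndufv3 (40.4 Mb) and Ndufb10 (47.2 Mb) were not called either.

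The test at the level of single transcripts gave no call. The 85 genes have 94 transcripts in the deposited table, of which 90 were tested among 16546. None was called higher (0.55% of all transcripts tested were) and none lower (1.02%), and at an unadjusted p below 0.05, 3 were higher (against 6.71% of all transcripts) and 1 was lower (against 6.88%). The smallest adjusted p, 0.191 by edgeR, was that of Cox7a1, which has a single transcript. Of the 7 genes with several transcripts, Ndufv3, an accessory subunit of the flavin module, gave 61.0%, 61.2% and 65.1% of its fragments to its shorter transcript in knockout libraries, and 57.2%, 53.6% and 63.8% in wild type libraries. The groups overlapped. For Atp5g1 the division between both transcripts ran from 58.6% to 97.1% among the knockout libraries and from 53.1% to all of the fragments among the wild type libraries, so no change within it could be read.

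The scale of the values mattered for some members. The authors' deposited table, which compares FPKM (fragment levels per kilobase of transcript and library size) by Cuffdiff, lists 4 of 83 tested members at a q-value below 0.05, against 6.95% of the genes it tested. In the authors' deposited table Cox7a1 was higher in knockout eyes (log2 fold change 0.60), and Cox8a (-0.51), Atp5e (-0.41) and Ndufa7 (-0.40) were lower, each with q = 0.00162. On fragment counts the last 3 lay at -0.079, -0.16 and -0.051, and none was called by edgeR.

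Cox8a had 718, 866 and 515 FPKM in knockout libraries and 813, 1560 and 606 FPKM in wild type libraries. Its lower mean in knockout eyes rests on wild type library 2, which stood far above the other 5, whereas in CPM the same library, at 199, was level with wild type library 1. Atp5e had 523, 593 and 472 FPKM in knockout libraries and 615, 1030 and 469 FPKM in wild type libraries, and Ndufa7 had 341, 274 and 234 FPKM in knockout libraries and 353, 532 and 232 FPKM in wild type libraries. Again wild type library 2 was the highest of the 6 for both, and wild type library 3 the lowest.

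Over the 82 tested members other than Ndufs5, the log2 ratio of FPKM to CPM, set to zero at each gene's knockout mean, had a median of 0.23 in wild type library 2 and lay between -0.10 and 0.067 in the other libraries. For the 16 members with transcripts shorter than 500 bases it was 0.39 in wild type library 2, and for the 66 longer ones 0.13. On FPKM the log2 ratio of group means was below zero for 10 of the 16 shorter members and for 42 of the 66 longer ones. Cox8a, with the largest drop against CPM, has a transcript of 545 bases and counts among the longer ones. The SD of the members' log2 ratios of group means was 0.16 on FPKM and 0.10 on CPM. The cause of the gap between the scales was not tested.

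**Figure D5:**
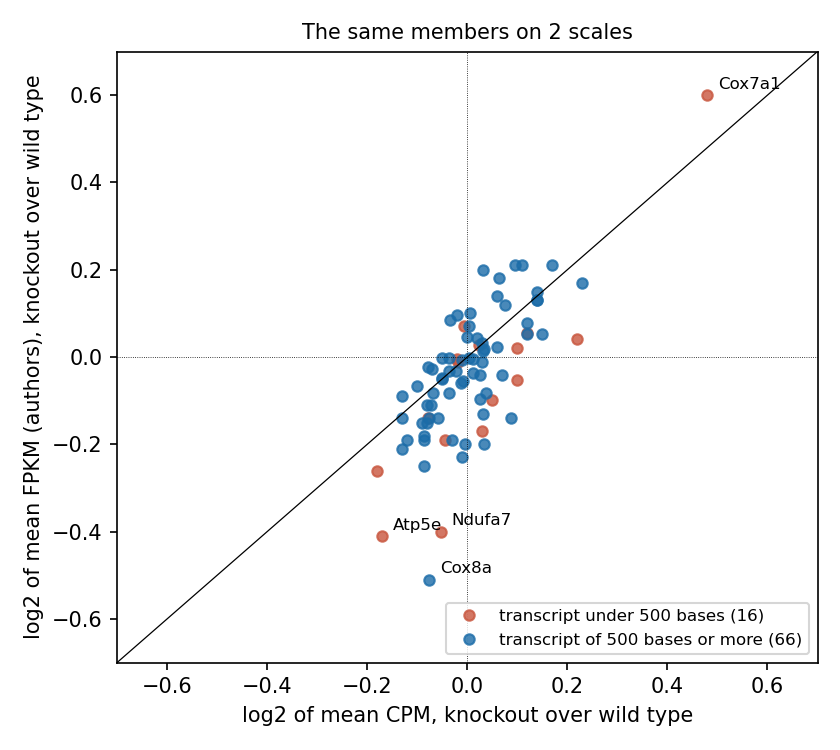
Log2 ratio of the knockout over the wild type mean for 82 members, on CPM (horizontal) and on the authors' FPKM (vertical), with transcripts under 500 bases and longer ones in separate colours; the diagonal marks equal values. Cox8a, Atp5e and Ndufa7 fall well below the diagonal (-0.51, -0.41 and -0.40 on FPKM), while Cox7a1 is high on both scales.

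Other mitochondrial genes were read from the same fit, in which 2.89% of all genes were called higher and 3.35% lower. Of the 5 tested pathway genes that the name rule misses, none was called; Cyc1 of complex III lay at -0.084 and cytochrome c itself, Cycs, at 0.040. The 18 citrate cycle genes had no call and a median of 0.014. Of 24 markers of mitochondrial mass, 1 fell, the import channel Tomm40 (-0.28, edgeR adjusted p = 0.0418), with a list median of -0.0089. Of 30 assembly factors 1 fell, and of 19 regulators of mitochondrial biogenesis 1 fell, with medians of -0.039 and -0.0072. None of these lists had a gene called higher. The summed level of the biogenesis regulators was 528, 534 and 530 CPM in knockout libraries and 556, 560 and 555 CPM in wild type libraries, so every knockout library lay below every wild type library. Within that list the coactivator Ppargc1a had 45.1, 47.4 and 45.9 CPM in knockout libraries and 50.1, 51.1 and 58.2 CPM in wild type libraries (log2 fold change -0.20, edgeR adjusted p = 0.148). Its relative Ppargc1b had 31.0, 27.4 and 29.3 CPM in knockout libraries and 32.6, 33.6 and 33.6 CPM in wild type libraries (-0.18, edgeR adjusted p = 0.231). The groups did not overlap in either gene, as in 11.7% of all genes tested in that direction, and neither passed the threshold. Both were named after their values were seen. Other genes of the list lay above wild type, among them Peo1 (0.29, edgeR adjusted p = 0.207) and Mterf (0.52, edgeR adjusted p = 0.343).

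Lrpprc, which stabilizes the mitochondrial mRNAs that encode the remaining subunits of these complexes, had 57.9, 58.2 and 70.3 CPM in knockout libraries and 85.0, 86.4 and 81.9 CPM in wild type libraries. It fell without overlap, at a log2 fold change of -0.43 ± 0.076 (SE, edgeR adjusted p = 0.00189). Polg2, the accessory subunit of the mitochondrial DNA polymerase, had 15.6, 18.1 and 18.5 CPM in knockout libraries and 24.7, 23.8 and 23.2 CPM in wild type libraries, a log2 fold change of -0.47 ± 0.096 (SE, edgeR adjusted p = 0.00684). Ckmt1, the mitochondrial creatine kinase that carries ATP energy into the cytosol, was the 1 called gene among 9 uncoupling and creatine kinase genes, at -0.25 (edgeR adjusted p = 0.028). The calls of Tomm40, Lrpprc, Polg2 and Ckmt1 come from the fit without sex, in which 3.35% of all genes were called lower. With sex as a covariate 0.965% were, and the values of these genes in that fit are not given here. None of the 13 mitochondrially encoded subunits was found, under the symbols looked for, among the genes read, so they were not analysed here.

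Promoters were read because NRF1 and ETS factors such as GABP are known regulators of many of these genes. Of 70 members with a RefSeq promoter window (GRCm38.p6, 250 bases before to 50 after the start), 10 held the NRF1 core GCGCATGC or its reverse complement GCATGCGC (14.3%, against 3.05% of all windows and 5.52% of those of genes tested). The ETS core CCGGAAG or its reverse complement CTTCCGG was in 16 (22.9%, against 9.93% and 17.9%). The median log2 fold change was 0.017 for members with the NRF1 core and 0.0073 for those without it, and 0.0072 and 0.018 for the ETS core. Shown are the 250 bases before the start of Cox7a1 (chr7:30183921-30184170, plus strand), which rose, of its general partner Cox7a2 (chr9:79759854-79760103, minus strand), and, to show a member with both motifs, of the general form Cox6a1 (chr5:115348959-115349208, minus strand). Capitals mark the motif letters; in Cox6a1 the matches to the NRF1 core on the 2 strands overlap. Neither motif occurs in the windows of Cox7a1 and Cox7a2.
Cox7a1: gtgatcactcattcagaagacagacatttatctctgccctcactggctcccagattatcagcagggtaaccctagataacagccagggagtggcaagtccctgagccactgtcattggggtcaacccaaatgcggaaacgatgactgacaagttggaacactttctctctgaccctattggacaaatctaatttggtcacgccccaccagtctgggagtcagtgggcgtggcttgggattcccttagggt
Cox7a2: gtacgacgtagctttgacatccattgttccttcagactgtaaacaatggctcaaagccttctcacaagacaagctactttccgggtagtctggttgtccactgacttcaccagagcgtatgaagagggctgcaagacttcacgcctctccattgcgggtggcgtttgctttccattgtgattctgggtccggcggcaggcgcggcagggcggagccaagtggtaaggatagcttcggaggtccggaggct
Cox6a1: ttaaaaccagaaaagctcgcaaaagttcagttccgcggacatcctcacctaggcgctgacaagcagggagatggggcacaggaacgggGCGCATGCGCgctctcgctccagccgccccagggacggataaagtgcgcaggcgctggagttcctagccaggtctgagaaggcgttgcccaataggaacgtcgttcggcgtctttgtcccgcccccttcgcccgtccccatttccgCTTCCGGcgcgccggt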

How the data were processed

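Whole-eye RNA of 3 BC027072 -/- and 3 wild type samples was measured. The submitters' processing notes name the mm9 genome build and the tools Cuffdiff 2.2.1, Cufflinks 2.2.1 and TopHat2 2.0.12. Estimated counts of fragments for each gene and transcript in each library, not scaled to depth, were deposited by the authors, with FPKM of the same features, per the file headers. Of the gene values 98.5% were whole within 1e-06; all were rounded. The authors also deposited a comparison with mean FPKM, p-values and q-values. Another deposited table gives each transcript's gene, locus and length. Strand, read length and sex were not given in the sources used here. Libraries are numbered from 0 in the tables, and were read in order as replicates 1 to 3.

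Genes were tested with edgeR 4.0.16 (R 4.3.3): filterByExpr with a minimum count of 10 and a minimum total of 15, TMM scaling and a quasi-likelihood F test (knockout minus wild type, 6 libraries, no covariate) with Benjamini-Hochberg adjustment over 14919 genes and a threshold of 0.05. The SE is the absolute log2 fold change over the root of F, and the 95% interval uses the t quantile. Transcripts with a mean FPKM of at least 1 were tested alike. Alternatives used DESeq2 1.42.0 and limma 3.58.1. The edgeR test was tested on simulated data. CPM use the TMM factors. Deposited locus starts are given counted from 1.

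The members and gene lists were chosen with earlier results of these data known. The genes named are called members, the extremes, highest level and widest and narrowest interval of each complex, paralog pairs, chromosome 17 members and called list genes; the other genes named, the grouping by role, the 500-base limit and the promoters printed were chosen after their values were seen. The values of 1 member of complex I are not reported here on their own.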

Additional observations from a re-analysis of the deposited data

How the results depend on the processing

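Of 17 alternative settings, those that change the scaling (RLE, upper quartile), drop the filter or use DESeq2 or limma on log2 CPM left 1 member called higher and 0 lower. They called 2.19% to 3.19% of all genes higher and 2.88% to 3.38% lower. No member was called higher under limma on log2(FPKM + 1), on log2(FPKM + 0.1) or without a filter, or with sex as a covariate (0 each). These settings called 0.0715%, 0.0429%, 0.0484% and 0.61% of all genes higher. Leaving out 1 library in turn gave 0 to 2 members called higher, where 1.81% to 2.84% of all genes were. The number bounded within 0.5 log2 units was 42, 41 and 44 on the 3 FPKM settings and 76 to 80 with 1 library left out. On FPKM the median of complex III was 0.029, 0.030 and 0.029, and that of complex V -0.037, -0.038 and -0.037, below zero where the counts gave 0.033. With 1 library left out, the median of complex III ran from -0.029 to 0.046 and that of complex IV from 0.00097 to 0.046. Shares taken from FPKM gave 9.92 points for Cox7a1, 6.49 for Cox8b and -0.166 for Atp5g2, the last with the sign turned. The cause of these shifts was not tested. Of 595 values for 35 named members, 85 moved by more than their error, 7 lost the call (all Cox7a1) and 1 gained it (Cox6a2). Of the members, 48 changed sign in some setting; since none of them was called, this was not counted as a reversal.

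Same-numbered libraries had correlations of 0.132, 0.0657 and -0.0489 in their deviations, and differently numbered ones -0.165 to 0.0943. With 3 libraries per group, these values cannot decide whether the numbers pair the samples. A fit with the replicate number as a block called 1 member higher and 0 lower, and bounded 80 within 0.5 log2 units. It called 3.74% of all genes higher and 4.1% lower. The estimated split of fragments between transcripts, and between Ndufs5 and BC002163, limits those values, and the smallest library held 5695526 fragments.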
